A study of Rattus norvegicus with 8 samples.

Results

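The genes described here encode the enzymes that make sterols and fatty acids, together with the regulators that set their levels. The 30 genes were listed by name from the 2 pathways, with earlier results of these data known. Each was represented by its brightest probe on a rat oligonucleotide array, and 29 of the 30 were measured among 19901 genes tested. Srebf1, which encodes the sterol regulatory element-binding protein 1 transcription factor, had no probe matched to it and has no value. The 29 genes were split into a cholesterol arm of 21 genes and a fatty acid arm of 8 genes. All 29 were well above background in all 16 rats.

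Cells build cholesterol from acetyl-CoA through the mevalonate pathway, in which isoprene units are joined into squalene, closed into lanosterol and trimmed to cholesterol. Most genes of this route carry a sterol-responsive promoter and are read by the transcription factor SREBP-2, encoded by Srebf2, which is released from the endoplasmic reticulum when membrane sterol falls and is held back there by Insig1. Fatty acids are built from the same acetyl-CoA by a separate set of enzymes that need NADPH. The colon epithelium renews itself quickly and runs both routes, and fat cells attached to the gut wall run the fatty acid route at a high rate.

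The RNA came from a short piece of mid colon, taken after a dietary intervention from female Wistar rats labelled as 6 weeks old. The 4 diets were compared with 4 rats each. The AIN-93M diet was the reference (REF), and the cocoa diet (C10) brought polyphenols, fibre and the other constituents of cocoa. The cocoa fibre diet (CF) had the fibre of C10 with very few polyphenols, and the inulin diet (I) had as much soluble fibre as C10. The diets were isoenergetic, so C10 against CF sets whole cocoa against its fibre and CF against I sets 2 fibres side by side. C10 and CF differ in more than polyphenols, and the paper names methylxanthines among the other cocoa compounds. It also reports that C10 rats ended lighter than all other groups at similar chow intake. The part of body weight in the differences below was not tested. Each of the 16 array channels was taken as 1 rat. On that reading each rat was hybridised once, in 1 dye, on 1 of 8 two-colour arrays, with 2 rats of each diet in each dye. C10 and I never shared an array, and neither did CF and REF. Nothing in the labels ties rats to cages or litters.

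Levels below are log2 signals adjusted for dye, and they compare rats for 1 gene, not genes with each other. Differences come from a limma model of all 16 rats with diet and dye as terms and the correlation of the 2 rats of an array (0.476), with p-values adjusted by Benjamini-Hochberg across the 19901 genes in each comparison. A gene is said to have risen or fallen at an adjusted p below 0.05. Because the model weighs rats that share an array, a model difference can be larger than the gap between 2 diet means. Between 68.6% and 83.9% of spots were well above background per rat. All 11 measured colon epithelium markers and all 7 smooth muscle markers were above background in every rat. Rats differed in composition: the smooth muscle marker mean of C10 rat 1 lay at -1.87 around the mean of all rats, against -0.29 to 0.52 in the other 15, and Hoxb13, which marks the posterior gut, was at 6.45 in REF rat 4 against 9.86 or more elsewhere.

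In the C10 group, 4 of the 21 cholesterol arm genes fell against the REF group, Idi1, Hmgcs1, Msmo1 and Sqle, by 0.81 to 1.21 on the log2 scale. Of all genes tested, 0.97% were called lower in this comparison. By model difference, 18 of the 21 were lower and 3 higher, and the median of the arm was -0.29, against 0.013 over all genes. Without REF rat 2 that median was -0.19. At an unadjusted p below 0.05, 11 of the 21 were lower and 1 was higher, where 9.03% and 9.37% of all genes were.

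**Figure D1:**
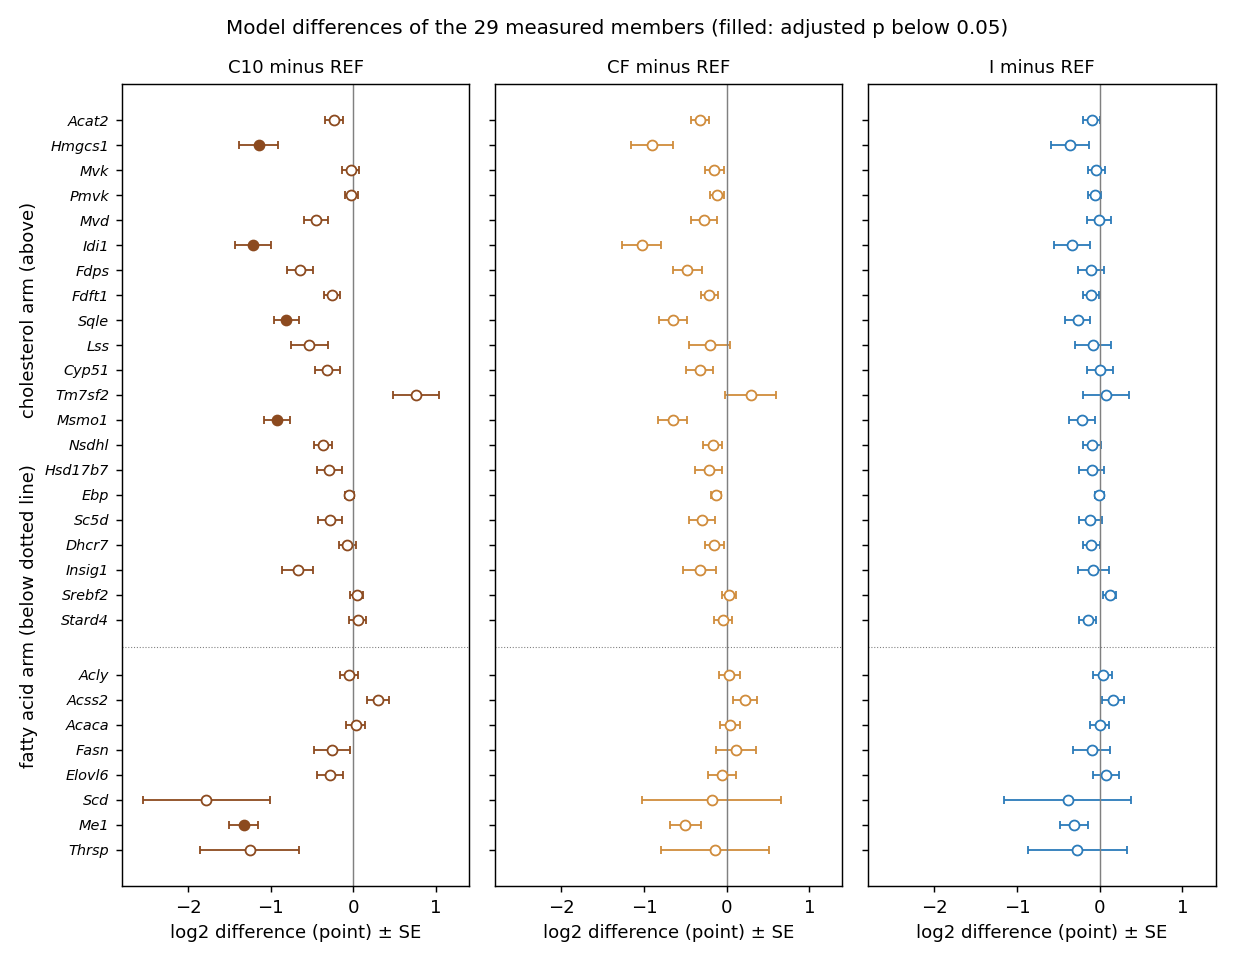
Model log2 differences (points) with standard errors (bars) of the 29 measured genes in C10, CF and I against REF, with the cholesterol arm above the dotted line and the fatty acid arm below it. Filled points have an adjusted p below 0.05; these are Hmgcs1, Idi1, Sqle, Msmo1 and Me1 in C10, and none in CF or I.

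Hmgcs1 encodes the cytosolic HMG-CoA synthase, which condenses acetyl-CoA and acetoacetyl-CoA ahead of the committed step. Its log2 signal was 14.33, 14.44, 13.39 and 13.89 in the REF rats and 12.99, 12.66, 13.47 and 13.34 in the C10 rats. REF rat 3 lay below C10 rat 3, so the groups overlapped by that pair, while the other 3 REF rats were above every C10 rat. The model difference was -1.15 (SE 0.23, adjusted p = 0.0325 by limma), and the gap between the diet means was from 14.02 to 13.11.

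Idi1 encodes isopentenyl-diphosphate isomerase, which provides the activated isoprene unit. Its signal was 11.83, 12.04, 11.38 and 11.11 in the REF rats against 10.66, 9.98, 10.93 and 10.98 in the C10 rats. Every C10 rat was below every REF rat, with C10 rat 2 the lowest of all 16 and REF rat 2 the highest. The model difference was -1.21 (SE 0.22, adjusted p = 0.0199 by limma), a 2.32-fold lower level by the model. The gap between the diet means was smaller, from 11.59 to 10.64.

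Sqle encodes squalene epoxidase, the first oxygen-dependent step and a point of control of the pathway. It was at 12.37, 12.63, 11.98 and 12.00 in the REF rats and at 11.40, 11.49, 11.61 and 11.91 in the C10 rats. The groups did not overlap, although C10 rat 4 came close to REF rat 3. The model difference was -0.81 (SE 0.15, adjusted p = 0.0275 by limma). The rank product, the test of the study's methods, did not call Sqle.

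Msmo1 encodes the methylsterol monooxygenase that removes the methyl groups at carbon 4 of the sterol ring. Its signal was 13.98, 14.34, 13.65 and 13.80 in the REF rats and 13.02, 12.91, 13.36 and 13.49 in the C10 rats. All C10 rats were again below all REF rats. The model difference was -0.93 (SE 0.16, adjusted p = 0.0152 by limma), the smallest adjusted p of the arm. Idi1, Sqle and Msmo1 were the 3 genes of the arm whose C10 and REF rats did not overlap, which happened in the lower direction for 2.11% of all genes. For 4 rats against 4 without overlap, the exact two-sided permutation test gives p = 0.0286, the smallest it allows.

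**Figure D2:**
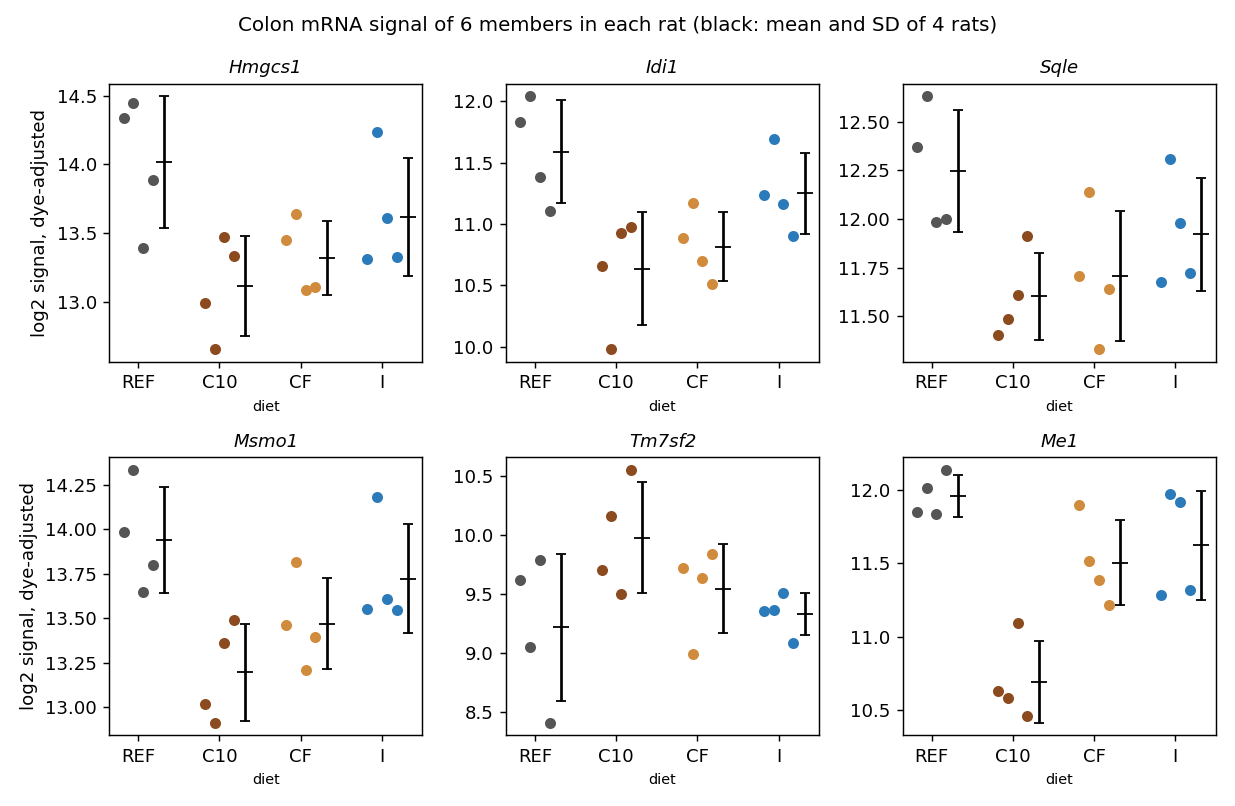
Dye-adjusted log2 signal of Hmgcs1, Idi1, Sqle, Msmo1, Tm7sf2 and Me1 in each rat (coloured points, 4 per diet), with the diet mean and SD in black. C10 rats lie lowest for Me1, below every rat of the other 3 diets, and REF rats 1 and 2 lie at the top for Hmgcs1, Idi1 and Sqle.

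Hmgcs1, Idi1, Msmo1 and Tm7sf2, a member described further on, have a promoter window in RefSeq, shown here because 3 of them fell together and the last did not. The windows are the 250 bases before each start in the GRCr8 build. Capitals mark matches on either strand to CCAAT (the NF-Y box), GGGCGG (the Sp1 box), CACGTG (the E-box), TCACNCCAC (a sterol regulatory element) and TGACNNNGC (the core of the antioxidant response element).
Hmgcs1, chr2:53382054-53382303, plus strand: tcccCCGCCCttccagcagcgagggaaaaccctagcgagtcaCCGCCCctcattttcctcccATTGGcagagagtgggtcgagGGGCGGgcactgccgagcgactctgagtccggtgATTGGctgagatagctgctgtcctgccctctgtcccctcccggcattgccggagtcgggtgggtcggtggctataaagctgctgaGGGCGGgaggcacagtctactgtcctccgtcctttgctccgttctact
Idi1, chr17:66547525-66547774, minus strand: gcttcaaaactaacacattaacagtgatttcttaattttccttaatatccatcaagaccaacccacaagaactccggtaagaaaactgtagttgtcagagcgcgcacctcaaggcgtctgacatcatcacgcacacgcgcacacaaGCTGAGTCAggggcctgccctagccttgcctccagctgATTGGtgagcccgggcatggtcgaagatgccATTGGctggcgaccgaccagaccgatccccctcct
Msmo1, chr16:29746863-29747112, plus strand: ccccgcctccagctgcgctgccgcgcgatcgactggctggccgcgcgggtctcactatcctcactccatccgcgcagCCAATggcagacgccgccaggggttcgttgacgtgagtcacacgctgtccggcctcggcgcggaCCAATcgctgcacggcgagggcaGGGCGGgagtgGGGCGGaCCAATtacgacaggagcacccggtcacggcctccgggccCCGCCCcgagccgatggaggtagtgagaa
Tm7sf2, chr1:212789542-212789791, minus strand: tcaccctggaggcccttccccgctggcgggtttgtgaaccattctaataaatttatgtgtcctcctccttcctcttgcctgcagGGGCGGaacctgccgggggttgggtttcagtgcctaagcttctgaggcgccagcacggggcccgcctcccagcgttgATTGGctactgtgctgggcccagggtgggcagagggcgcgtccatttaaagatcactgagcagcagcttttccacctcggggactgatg

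Hmgcs1 and Idi1 each held 2 matches to CCAAT and Msmo1 held 3. Of the 17 cholesterol arm genes with a window, 14 held CCAAT and 15 held GGGCGG, against 34% and 30.5% of all 33469 windows, which were not matched for base composition. CACGTG was found in 2 of the 17 and TGACNNNGC in 4, against 5.59% and 10.1% of all windows. None of the 17 held TCACNCCAC, which was in 0.974% of all windows. Tm7sf2, which did not fall, also held CCAAT and GGGCGG, each once.

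The upstream enzymes around Hmgcs1 and Idi1 did not move alike. Acat2, the cytosolic thiolase that supplies acetoacetyl-CoA, differed by -0.24 (SE 0.10, adjusted p = 0.24 by limma) and Mvd, which decarboxylates mevalonate diphosphate, by -0.45 (SE 0.14, adjusted p = 0.12). Mvk and Pmvk, the 2 kinases that phosphorylate mevalonate between those steps, were at -0.03 and -0.02, with standard errors of 0.10 and 0.08. Fdps, which makes farnesyl diphosphate, came close to the threshold at -0.64 (SE 0.16, adjusted p = 0.061), and its other probe gave -0.66. C10 rats 1 to 3 lay between 12.38 and 12.45, below every REF rat, while C10 rat 4 was at 13.07.

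From squalene onwards, Fdft1 (squalene synthase) differed by -0.26, Lss (lanosterol synthase) by -0.53 and Cyp51 (lanosterol demethylase) by -0.32, none past the threshold. Lss was the most scattered of these, from 8.85 to 10.52 within the C10 group. Nsdhl, Hsd17b7 and Sc5d, which complete the removal of methyl groups and set the ring double bonds, lay at -0.37, -0.29 and -0.28, with adjusted p from 0.10 to 0.33. Ebp, the sterol isomerase, and Dhcr7, which makes the last reduction, were at -0.05 and -0.07, with standard errors of 0.06 and 0.10. So the differences were uneven along the route, and the 4 genes that fell stood at 4 separate steps of it.

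Tm7sf2, a sterol C14 reductase, was the one enzyme of the cholesterol arm with a model difference above 0. The plain C10 means of Mvk, Pmvk and Dhcr7 were also above their REF means, at 8.79 against 8.74, 11.29 against 11.25 and 10.58 against 10.54. The Tm7sf2 signal ran from 8.41 to 9.79 in the REF rats and from 9.501 to 10.55 in the C10 rats, a difference of 0.76 (SE 0.28, adjusted p = 0.17 by limma). Its lowest level of the 16 was in REF rat 4 and its highest in C10 rat 4, which also held the lowest and the highest mean of 4 posterior Hox genes. With that Hox mean as a covariate, the difference was 0.16 (SE 0.15).

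Among the regulators, Insig1, whose own transcription follows SREBP activity, differed by -0.68 (SE 0.18, adjusted p = 0.077 by limma). REF rats ran from 11.44 to 12.38 and C10 rats from 10.99 to 11.82, and REF rat 3 lay below 2 of the C10 rats. Srebf2 was level, at 0.04 (SE 0.08, 95% confidence interval -0.13 to 0.21). Stard4, a carrier of cholesterol between membranes, was at 0.05 (SE 0.10), and its second probe gave -0.08. Another 21 measured genes of sterol uptake, efflux, bile acid and later steps held none that passed the threshold, with a median difference of 0.058, 16 higher and 5 lower. At an unadjusted p below 0.05, 4 of these were lower and 1 higher.

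**Figure D3:**
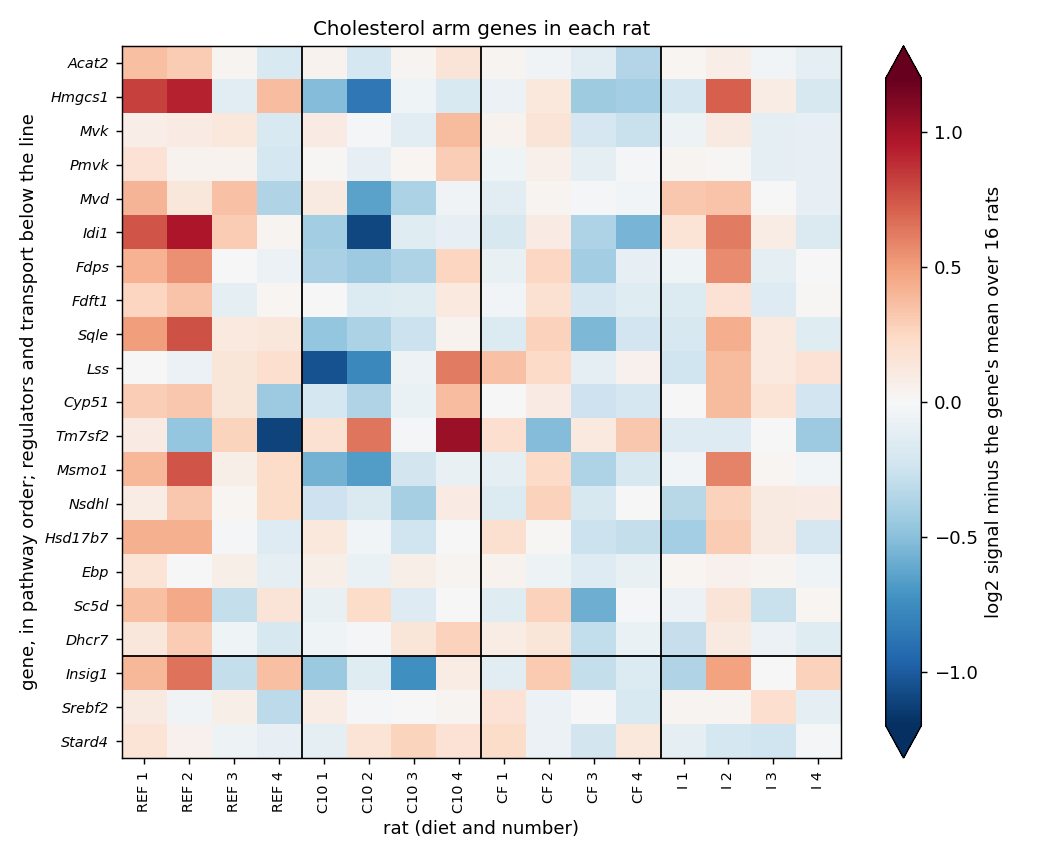
Deviation of each cholesterol arm gene (rows, in pathway order, regulators and transport below the line) from its own mean over the 16 rats (columns, by diet), as log2 signal; red is higher and blue lower. REF 1, REF 2 and I 2 are red for most genes, C10 1 and C10 2 are blue for Hmgcs1, Idi1, Sqle, Lss and Msmo1, and Tm7sf2 runs apart from the rest.

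Individual rats carried much of the pattern. REF rat 2 had the highest level of the 16 for 10 of the 21 genes and REF rat 1 for 3 more, whereas REF rat 4 had the lowest for 4. Within the C10 group, C10 rat 4 was the highest of its diet for 14 genes and C10 rat 2 the lowest for 11. The mean deviation of the arm was 0.31, 0.33, 0.04 and -0.08 in the REF rats and -0.18, -0.25, -0.14 and 0.17 in the C10 rats, so as a whole the arm overlapped between the diets. REF rats 1 and 2 sat on the 2 arrays that also held C10 rats 1 and 2, and within those arrays Idi1 differed by -1.17 and -2.06, and Msmo1 by -0.96 and -1.42. Those 2 arrays lay in the slide row of arrays 1 to 4, in which Idi1 differed by -1.30 over 4 C10 and 2 REF rats, and with the slide row as a term 5 genes of the arm were called.

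Without REF 1, REF 2 or C10 2, none of the 21 genes was called, without C10 1 there were 2, without REF 4 there were 3, and without REF 3 or without C10 4 there were 6. None was called either with each rat taken as independent, where Idi1 differed by -0.95 (adjusted p = 0.19 by limma). The posterior Hox mean was -0.57 ± 1.19 (SD, n = 4) in REF and 0.69 ± 0.67 in C10, the smooth muscle mean 0.28 ± 0.32 and -0.42 ± 0.98, and the adipocyte mean 0.11 ± 0.37 and -0.29 ± 0.40. The goblet cell mean was 0.16 ± 0.26 in REF, with REF rats 1 and 2 at 0.365 and 0.306, and -0.22 ± 0.33 in C10, with C10 rats 1 and 3 at -0.53 and -0.48. All 6 goblet cell markers were lower in C10 than in REF, 3 at an unadjusted p below 0.05 and none called by limma, and this mean was not fitted as a covariate. With the Hox or the adipocyte mean as a covariate Idi1 differed by -1.205 and -1.179 but no gene of the arm was called, and with the smooth muscle mean 2 were, Idi1 and Msmo1. The part of tissue composition in these differences was not tested beyond those fits. In a piece of whole colon wall, fewer cells of a type and less RNA per cell cannot be told apart.

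In the CF group, no cholesterol arm gene passed the threshold, and the smallest adjusted p was 0.58 by limma. No gene of the whole array did so in this comparison by limma, where 696 were higher and 731 lower at an unadjusted p below 0.05. The rank product, the test of the study's methods, called 141 genes of the array, among them Hmgcs1 and Idi1. Still, 19 of the 21 were lower than in REF, with a median of -0.22 against 0.012 over all genes. At an unadjusted p below 0.05, 6 were lower and none higher, where 3.67% of all genes were lower: Acat2, Hmgcs1, Idi1, Fdps, Sqle and Msmo1. Idi1 differed by -1.03 (SE 0.24), Hmgcs1 by -0.90 (SE 0.25) and Sqle and Msmo1 by -0.65 each. Idi1 ran from 10.51 to 11.17 in the CF rats, so that CF rat 2 alone overlapped with REF rat 4. This comparison shares its REF rats with the previous one, and no array held both a CF and a REF rat. The plain means in CF and REF were 10.81 and 11.59 for Idi1, and 13.32 and 14.02 for Hmgcs1.

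Between C10 and CF, no cholesterol arm gene was called or reached an unadjusted p below 0.05, although 7.65% of all genes were lower at that level. The median was -0.05, with 11 lower and 10 higher. Idi1 differed by -0.18 (95% confidence interval -0.66 to 0.29), Hmgcs1 by -0.25 (-0.74 to 0.25), Sqle by -0.16 (-0.49 to 0.17) and Msmo1 by -0.28 (-0.62 to 0.06). All 4 intervals span 0. For Hmgcs1, Sqle and Msmo1 they overlap the intervals of C10 against REF, whose upper ends were -0.65, -0.48 and -0.59. For Idi1 they do not, with an upper end of -0.74 there. Both comparisons use the same C10 rats, so overlap of their intervals is no test of CF against REF. That comparison gave an adjusted p of 0.58 for Idi1 by limma.

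In the I group, the cholesterol arm lay closer to REF, with a median of -0.09, 18 of the 21 lower, and none at an unadjusted p below 0.05, where 3.2% of all genes were lower. Hmgcs1 was at -0.36 (SE 0.23), Idi1 at -0.33 (SE 0.22) and Msmo1 at -0.22 (SE 0.16). I rat 2 had the highest level of its diet for 17 of the 21 genes. Among the 4 genes that fell in C10, its signals of 14.23 for Hmgcs1, 11.69 for Idi1, 12.31 for Sqle and 14.18 for Msmo1 were in the range of the REF rats.

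Set against I, the C10 group showed no called cholesterol arm gene, and 8 of the 21 were lower and 1 higher at an unadjusted p below 0.05, where 6.16% and 6.72% of all genes were. The 8 were Hmgcs1, Idi1, Fdps, Sqle, Msmo1, Mvd, Nsdhl and Insig1, and the higher one was Tm7sf2. Msmo1 had the smallest adjusted p, at -0.71 (SE 0.17, adjusted p = 0.096 by limma). Its signal was 13.55, 14.18, 13.61 and 13.55 in the I rats, all above the C10 rats given before. It was the one gene of the arm without overlap, against 3.01% of all genes in that direction. CF against I shares all 4 I rats with that comparison, and in it 8 of the 21 were lower at an unadjusted p below 0.05, where 1.39% of all genes were. These were Acat2, Hmgcs1, Idi1, Fdps, Sqle, Cyp51, Msmo1 and Ebp, with Idi1 at -0.69 (SE 0.22) and Msmo1 at -0.43 (SE 0.16), and none of them was called by limma.

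In the fatty acid arm, Me1 was the gene that fell. It encodes the cytosolic malic enzyme, which turns malate into pyruvate and yields NADPH for fatty acid synthesis. Its signal was 11.85, 12.01, 11.83 and 12.13 in the REF rats, 10.63, 10.58, 11.09 and 10.46 in the C10 rats, 11.90, 11.51, 11.39 and 11.21 in the CF rats, and 11.28, 11.97, 11.91 and 11.32 in the I rats. All 4 C10 rats were below all 12 rats of the other diets. Against REF it differed by -1.33 (SE 0.17, adjusted p = 0.0031 by limma), a 2.51-fold lower level by the model, and its second probe gave -1.35. The gap between the diet means of Me1 was from 11.96 to 10.69.

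Against CF, Me1 differed by -0.83 (SE 0.17, adjusted p = 0.048 by limma), where 0.553% of all genes were called lower, 7.65% were lower at an unadjusted p below 0.05 and 2.46% did not overlap. Against I it differed by -1.01 (SE 0.19, adjusted p = 0.030), where 0.442% of all genes were called lower and 3.01% did not overlap. It was 1 of 8 genes of the arm in each case. In CF against REF its difference was -0.50 (SE 0.19, adjusted p = 0.65) and in I against REF -0.31 (SE 0.17, adjusted p = 0.83). Within the 2 arrays that held both C10 and REF rats it differed by -1.22 and -1.43, and within the 2 that held C10 and CF rats by -0.80 and -1.05.

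The call of Me1 against REF held without any single rat (adjusted p up to 0.027 by limma). It also held with the adipocyte mean (-1.198, adjusted p = 0.023), the Hox mean (-1.10, adjusted p = 0.021) and the smooth muscle mean (-1.28, adjusted p = 0.016) as covariates, and was lost without a dye term (adjusted p = 0.060) and in log ratios alone (adjusted p = 0.19). The call against CF was lost without each of 12 of the 16 rats, that is, all except REF 4, CF 4, I 2 and I 4 (adjusted p up to 0.22), and under 15 of 21 other settings. The call against I was lost without REF 2, C10 2, C10 4, CF 1, CF 2, I 2 or I 3 (adjusted p up to 0.12), and under 7 of 21 other settings (adjusted p up to 0.52), among them the slide row as a term. All C10 rats were on arrays 1 to 4 and all I rats on arrays 5 to 8.

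The promoter window of Me1 is shown for the same motifs, since it was the member with the steadiest difference.
Me1, chr8:96540245-96540494, minus strand: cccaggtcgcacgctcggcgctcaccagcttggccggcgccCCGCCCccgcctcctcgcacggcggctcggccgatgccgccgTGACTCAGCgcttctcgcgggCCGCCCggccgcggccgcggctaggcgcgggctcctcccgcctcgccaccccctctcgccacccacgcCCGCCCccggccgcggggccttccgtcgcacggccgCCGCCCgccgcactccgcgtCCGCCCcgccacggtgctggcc
It held 5 matches to GGGCGG and 1 to TGACNNNGC, and none to CCAAT, TCACNCCAC or CACGTG. Of the 5 measured fatty acid arm genes with a window, 3 held TGACNNNGC, 3 held CCAAT and 4 held GGGCGG.

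The other fatty acid genes showed no call in any of the 6 comparisons with the linear model. Acly, which splits citrate into acetyl-CoA, Acaca, the acetyl-CoA carboxylase, and Fasn, the fatty acid synthase, differed between C10 and REF by -0.06 (SE 0.11), 0.03 (SE 0.11) and -0.26 (SE 0.22). Acss2, which makes acetyl-CoA from acetate, was at 0.29 (SE 0.13, adjusted p = 0.25 by limma), and Elovl6, the elongase that extends palmitate, at -0.29 (SE 0.16). The median of the arm was -0.27, and 0.015 with the adipocyte mean, described next, as a covariate. It was -0.14 without REF rat 1 and -0.18 without C10 rat 1. A further 28 measured genes of fatty acid and triglyceride metabolism held no call, with a median of -0.05, 13 higher and 15 lower, and 7 lower and 1 higher at an unadjusted p below 0.05.

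Scd, the stearoyl-CoA desaturase, and Thrsp, a lipogenic regulator abundant in fat, spread the most. Scd ran from 9.73 to 12.70 in the REF rats, from 8.92 to 10.80 in C10, from 9.55 to 13.16 in CF and from 8.35 to 12.46 in I. Its difference between C10 and REF was -1.78 (SE 0.77, adjusted p = 0.24 by limma). Thrsp ran from 7.44 to 10.28 in REF and from 7.01 to 8.55 in C10, with a difference of -1.26 (SE 0.60, adjusted p = 0.28). For both genes every diet overlapped with every other, and the single lowest level was in I rat 4. The rank product, computed on the dye-adjusted signals without the array pairing, called both genes lower in C10 against REF, CF and I.

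Levels of these genes ran with a mean of fat cell markers across rats. The 9 measured adipocyte markers were Adipoq, Cidec, Cfd, Retn, Lpl, Fabp4, Aqp7, Lipe and Lgals12. Their unweighted mean was compared with each of the 8 genes over the 16 rats, with permutation tests and adjustment over the 8. The markers spread unequally, with an SD in the REF rats of 1.12 for Adipoq and 0.03 for Lgals12. They also did not all move together. Cidec was at 8.41 in C10 rat 2 and 7.34 in REF rat 3, where Adipoq was at 7.03 and 10.63. The permutations shuffled all rats freely, without regard to diet or to shared arrays, so their p-values can overstate the evidence. Thrsp gave r = 0.93 and rho = 0.94 and Scd r = 0.92 and rho = 0.92, each with a permutation p of 1e-05, the smallest the 100000 resamples allow (adjusted p = 4e-05). Without C10 rat 1 and CF rat 1, which lay farthest from the median of the marker mean, r was 0.92 and 0.90, and for deviations from diet means it was 0.92 and 0.89.

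Fasn gave r = 0.84 and rho = 0.84 (permutation p = 8e-05 for both, adjusted p = 0.000213), Acaca r = 0.75 and rho = 0.71 (permutation p = 0.00089 and 0.00248, adjusted p = 0.0018 and 0.0040), and Acly r = 0.71 and rho = 0.79 (permutation p = 0.00222 and 0.00055, adjusted p = 0.0036 and 0.0011). Without the same 2 rats r was 0.76, 0.72 and 0.56. Me1 gave r = 0.53 (permutation p = 0.034, adjusted p = 0.045) and rho = 0.43 (permutation p = 0.0935, adjusted p = 0.13), and r was 0.38 without the 2 rats. Elovl6 (r = 0.21, rho = 0.09, permutation p = 0.428 and 0.746, adjusted p = 0.49 and 0.85) and Acss2 (r = -0.10, rho = -0.03, permutation p = 0.714 and 0.909, adjusted p = 0.71 and 0.91) did not pass.

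**Figure D4:**
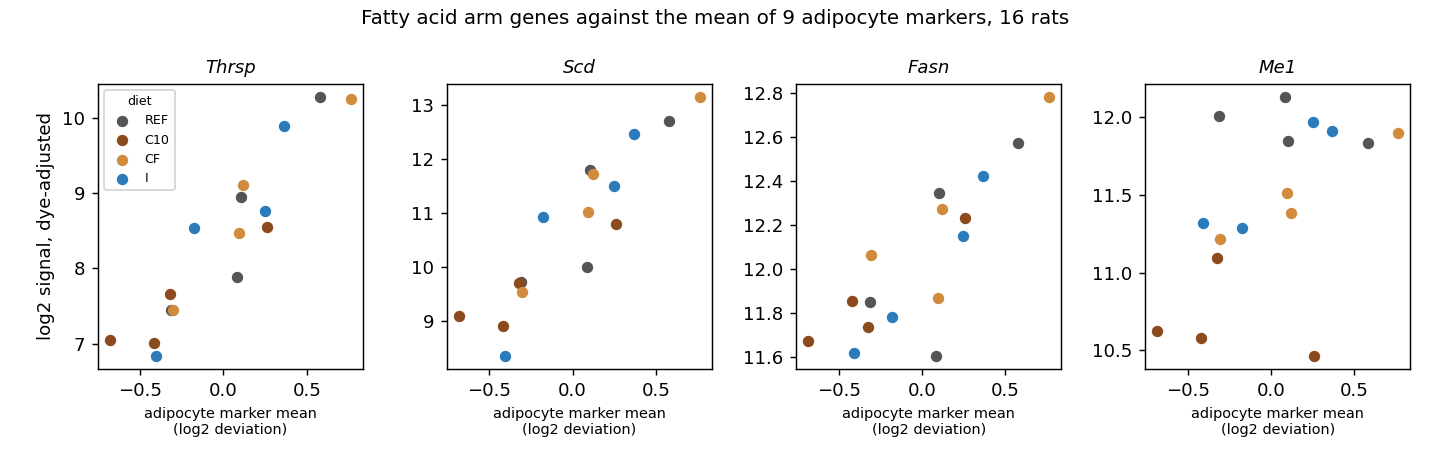
Dye-adjusted log2 signal of Thrsp, Scd, Fasn and Me1 (vertical axes) against the mean log2 deviation of 9 adipocyte markers (horizontal axis) in the 16 rats, coloured by diet. Thrsp and Scd climb with the marker mean in all diets (r = 0.93 and 0.92), while the 4 C10 rats lie below the other 12 for Me1.

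The adipocyte mean was -0.68, -0.42, -0.32 and 0.26 in the C10 rats and 0.10, -0.31, 0.58 and 0.08 in the REF rats. With it as a covariate, the difference between C10 and REF was -0.28 (SE 0.35) for Scd, -0.08 (SE 0.25) for Thrsp and 0.13 (SE 0.14) for Fasn, against -1.198 (SE 0.19) for Me1. None of the 9 markers passed the threshold in C10 against REF by limma, with a median of -0.12, 6 lower, 3 higher and 4 lower at an unadjusted p below 0.05. Fabp4 (-1.07) and Lpl (-0.61) were the 2 whose rats did not overlap, which happened in the lower direction for 2.11% of all genes. Adipoq differed by -1.74 (SE 0.62). The 3 higher markers were Aqp7 (0.232), Cidec (0.105) and Lipe (0.046). Retn was lower by the model, but its plain C10 mean was above its REF mean.

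In CF against REF the fatty acid arm had a median of -0.01, with 4 genes higher and 4 lower, and in I against REF it had a median of -0.05, again with 4 and 4. Neither comparison held a called gene of the arm by limma, and Me1 in CF was the 1 gene at an unadjusted p below 0.05. The 2 arms were not tested against each other.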

How the data were processed

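Total RNA of the middle colon of 16 rats was hybridised to 8 two-colour Agilent rat arrays on 1 slide. Per the submitters' processing notes, signals were extracted with Agilent Feature Extraction 10.7.3.1, and the authors deposited this scanner output, of which the median spot and background intensity of each dye were used. A second deposited table of normalized values had 8 sample columns that match no label and was not used. Following the study's methods where stated, intensities were corrected by normexp (offset 50), by spatial loess (span 0.4) and intensity loess (span 0.3) within arrays and by Aquantile between arrays, with limma 3.58.1 in R 4.3.3. Spans and offset are not given in the sources used here. Control spots and flagged outlier spots (604 to 896 per array) were left out, and no spot was saturated. Probes well above background in at least 4 rats were kept (22539 of 30367). A gene was named through the accession of its probe in RefSeq (18005 probes matched) and represented by its brightest probe, giving 19901 genes, 11922 of them with a symbol. Of the members, 4 had 2 probes and 25 had 1.

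The model was limma's separate-channel fit (intraspotCorrelation, lmscFit, eBayes) with diet and dye, checked on simulated data. The number of arrays limits the precision. The limma p-values rest on the spread between rats of a diet, pooled over the 4 diets and drawn toward that of other genes. They also use 1 within-array correlation for all genes. Nothing in the labels ties rats to cages, and the part of cages in the differences was not tested. All members are named; those called or without overlap are given rat by rat. The members, gene lists and tests were chosen with earlier results of these data known. Alternatives covered background correction, normalization, filters, probe choice, dye, correlation, covariates, each rat left out and the rank product (100 permutations). The methods describe 4 samples per diet and dye swaps of each sample. The labels give each channel a diet and a dye, with 4 channels per diet, and each channel was taken as 1 rat.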

Additional observations from a re-analysis of the deposited data

Results flagged for a closer look

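In each diet the rat farthest from the other 3 was looked for, gene by gene, by the ratio of its gap to the nearest rat over the range of the diet and set against Dixon's 95% critical value. Of 116 groups, 5 exceeded it, where chance gives about 1 in 20. Fdps was at 13.07 in C10 rat 4, against 12.38 to 12.45 in the other C10 rats, and at 13.38 in I rat 2, against 12.71 to 12.81 in the other I rats. Msmo1 was at 14.18 in I rat 2, against 13.55 to 13.61. Mvk was at 8.54 (8.535) in REF rat 4, against 8.79 to 8.84. Acaca was at 7.30 in CF rat 1, against 6.82 to 6.89.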

How the results depend on the processing

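In C10 against REF, 4 cholesterol arm genes were called; 1 was called without a dye term, 2 with the smooth muscle mean as a covariate, and 0 in log ratios within arrays, with the adipocyte or the posterior Hox mean as a covariate, or with each rat taken as independent. Leaving out 1 rat gave 0 to 6. Hmgcs1, Idi1, Msmo1 and Sqle were lower in C10 under all 21 settings and without any 1 rat. The rank product called Hmgcs1, Idi1 and Msmo1 but not Sqle, and with the scanner's processed signals Hmgcs1 was not called. The fatty acid arm's single call (Me1) went to 0 without a dye term and in log ratios, and to 3 by the rank product, which added Scd and Thrsp. In C10 against CF that count was 0 under 15 settings: normexp offsets 0 and 16, the scanner's processed signals, no normalization between arrays, quantile normalization, no filter on dim probes, no dye term, log ratios, the adipocyte, Hox, smooth muscle or proliferation mean, the slide row, duplicateCorrelation, and no within-array correlation. It was 3 by the rank product, and leaving out 1 rat gave 0 to 1. In C10 against I it was 0 without a dye term, in log ratios, with the adipocyte, Hox or proliferation mean, with the slide row and without the correlation, 3 by the rank product, and 0 to 1 on leaving out 1 rat. In CF against REF, 2 cholesterol arm genes were called by the rank product. In C10 against I, 2 were called with the proliferation mean, and the arm's median of -0.20 became -0.39 in log ratios and with the slide row, and -0.01 (-0.014) without the correlation. The cause was not tested. The marker covariates, slide row, duplicateCorrelation and independence of rats were chosen after seeing the data. Replicate numbers follow accession order and pair no rats, so no replicate block was fitted; rats that shared an array are paired by it, and the log ratios within arrays are that paired fit. With 4 rats a diet, the number of arrays limits what could be detected.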
